A study of Saccharomyces cerevisiae with 6 samples.

Results

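The fragments described here are yeast DNA inserts whose midpoint lies at least 10 kb and less than 30 kb from the nearer end of their chromosome in the R64 assembly, the zone of the subtelomeric gene families. They were chosen by that distance and by a minimum of 10 reads, summed over the 2 runs, in each of the gel sections A and B. Of the 9277 fragments that reached this minimum anywhere in the genome, 346 lay in the zone, and they formed 237 loci of overlapping fragments out of 4792. In the study, nucleosome core DNA released by micrococcal nuclease was put into YCp1.3, a small circular minichromosome, and each circle carried a single insert. The 3 kinds of sample were NucLib, the inserts of the whole pool before the gel, Topo-seq-A, the inserts eluted from the upper gel section (less negative ∆Lk), and Topo-seq-B, those of the lower section (more negative ∆Lk). All came from 1 strain, FY251 (mating type MATa with the alleles trp1-∆63, his3-∆200, ura3–52 and leu2-D1); cells in rich medium at 28 °C gave the nucleosome DNA, and colonies selected on medium without tryptophan, pooled in it at 28 °C, gave the minichromosomes. No treatment was applied. The inserts were read in the minichromosome and not at their place on the chromosome. Each sample was sequenced in 2 runs of the same DNA, and the gel was cut once, so every test below covers sequencing error and leaves out the spread between cultures, transformations and gels.

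The region inside a yeast chromosome end is a mosaic. Repeats of the telomere type and the X and Y′ elements lie outermost, and inward of them come gene families that are present on several chromosomes in nearly the same form, such as flocculins (cell wall adhesins of flocculation), hexose transporters, seripauperins and enzymes for maltose and thiamine. Many of these genes are used only when a nutrient is scarce. The linking number (Lk) of a DNA circle counts how often its strands wind around each other, and DNA wound around a histone octamer lowers it. This deficit, ∆Lk, stays in the naked circle and can be read from its position in a gel.

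The sequences that carry the main results are given as the plus strand of R64 from the RefSeq reference, 5′ to 3′. The first is the most abundant fragment of the locus with most fragments, in the annotated telomeric region TEL12L, and its capitals mark the first 18 bases, which a fragment with another ∆Lk lacked.
chrXII:11214-11357: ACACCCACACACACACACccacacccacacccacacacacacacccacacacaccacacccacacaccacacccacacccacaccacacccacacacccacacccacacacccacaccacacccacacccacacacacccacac
A fragment of FLO9 that ranked among the most abundant follows, and its capitals mark the last 3 bases, which were missing from the next most abundant fragment there.
chrI:24157-24267: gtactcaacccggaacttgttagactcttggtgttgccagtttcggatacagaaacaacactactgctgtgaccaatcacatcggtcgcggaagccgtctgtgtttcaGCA
The fragment of CDC50 is shown because the loss of its first 2 bases, in capitals, went with another ∆Lk.
chrIII:286831-286938: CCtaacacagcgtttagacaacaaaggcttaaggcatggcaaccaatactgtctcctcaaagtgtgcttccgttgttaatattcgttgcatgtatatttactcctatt
A unit of the internal repeat of FLO1, with the first bases of the next, is shown because the same sequence is listed at 6 places. Its capitals mark the last 13 bases, with which the next unit starts.
chrI:204798-204945: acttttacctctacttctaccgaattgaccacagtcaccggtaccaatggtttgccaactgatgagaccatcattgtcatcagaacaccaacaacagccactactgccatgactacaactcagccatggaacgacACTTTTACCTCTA
Finally, the highest and the lowest ∆Lk among well covered lead fragments belonged to 1 fragment in DAL5 and 1 in RSC9, where capitals mark runs of 5 or more A or T.
chrX:720831-720969: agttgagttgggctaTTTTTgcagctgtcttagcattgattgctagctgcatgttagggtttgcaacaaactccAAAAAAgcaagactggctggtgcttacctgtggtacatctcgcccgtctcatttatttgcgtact
chrXIII:18574-18744: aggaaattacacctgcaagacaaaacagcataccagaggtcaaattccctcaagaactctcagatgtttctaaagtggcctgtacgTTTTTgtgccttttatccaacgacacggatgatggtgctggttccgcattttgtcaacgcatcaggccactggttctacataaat

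The deposited lists summed to 851697 and 1748161 reads for NucLib, 2073823 and 1698433 for section A, and 1480629 and 1865197 for section B (runs 1 and 2). The subtelomeric fragments held 2.99% and 3.04% of the NucLib reads, 2.49% and 2.45% of those of section A and 2.88% of those of section B in either run. Single fragments had from 10 to 6548 reads in section A and from 10 to 8057 in section B, and 91 of them had 100 or more in each. Of the 7975 listed fragments of the zone, 114 reached 10 reads in section A only and 509 in section B only, and these are not described. The NucLib lists lacked 11 of the 346 fragments, which places them at or below the lowest count of a list.

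All 32 chromosome arms had fragments in the zone. The left arm of chromosome XII had most, 44 fragments in 9 loci, followed by the left arm of chromosome I with 29 in 7 loci and the right arm of chromosome VIII with 25 in 21 loci. The right arm of chromosome IX had fewest, with 3. A single fragment made up 200 of the 237 loci, whereas 6 loci held 5 or more. Compared with all fragments used, the subtelomeric ones were slightly shorter (median 144 against 147 bp) and had a similar G+C content (43.4% against 44.5%). Fewer of them lay in a gene (63.9% against 82.5%), and 24.0% occurred more than once in R64, against 36.3% of all. That set includes the rDNA, where 97.3% did. Of the fragments at 30 kb or more from an end, outside the rDNA, 10.7% occurred more than once, and their median G+C content was 41.9%.

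Whether a fragment went preferentially to one gel section was tested with edgeR's quasi-likelihood test over all 9277 fragments, with Benjamini-Hochberg adjustment and a threshold of 0.05. Toward section A, 107 of the 346 fragments (30.9%) passed, beside 24.3% of all fragments tested, and toward section B 75 (21.7%), beside 21.3%. The remaining 164 did not pass. The lead fragment of each locus was the one with most NucLib reads. In this same fit, 83 (35.0%) of 237 subtelomeric leads passed toward section A, beside 1532 (31.97%) of all 4792 leads. Toward section B 46 (19.4%) passed, beside 804 (16.78%). Over all fragments, the share toward section B was thus close to that of the genome, and the share toward section A was a few points higher. With 1 lead per locus, both shares were a few points higher than those of all leads, without this contrast between the sections. DESeq2, which calls fewer fragments here, gave 49 (14.2%) toward section A, beside 9.69% of all, and 49 (14.2%) toward section B, beside 14.1%. With 50 or more reads in each section, edgeR gave 80 of 154 (51.9%) toward section A, beside 42% of all such fragments, and 36 (23.4%) toward section B, beside 20.5%.

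The partition went with length. None of the 48 subtelomeric fragments under 120 bp passed toward section A, beside 1.91% of all fragments of that length. Toward section B 38 passed (79.2%, beside 60.2% of all of that length). Between 140 and 160 bp the balance was opposite, with 78 of 166 toward section A (47.0%, beside 41.8%). Toward section B 8 passed (4.82%, beside 4.39%), close to the share of all fragments of that length. Between 120 and 140 bp, 26 of 98 passed toward section A (26.5%, beside 14.4% of all of that length) and 21 toward section B (21.4%, beside 31.4%). Of the 34 fragments of 160 bp or more, 3 passed toward section A (8.82%, beside 11.8%) and 8 toward section B (23.5%, beside 14.99%). A shorter circle runs ahead in the gel, and a section therefore mixes length with topology.

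**Figure D1:**
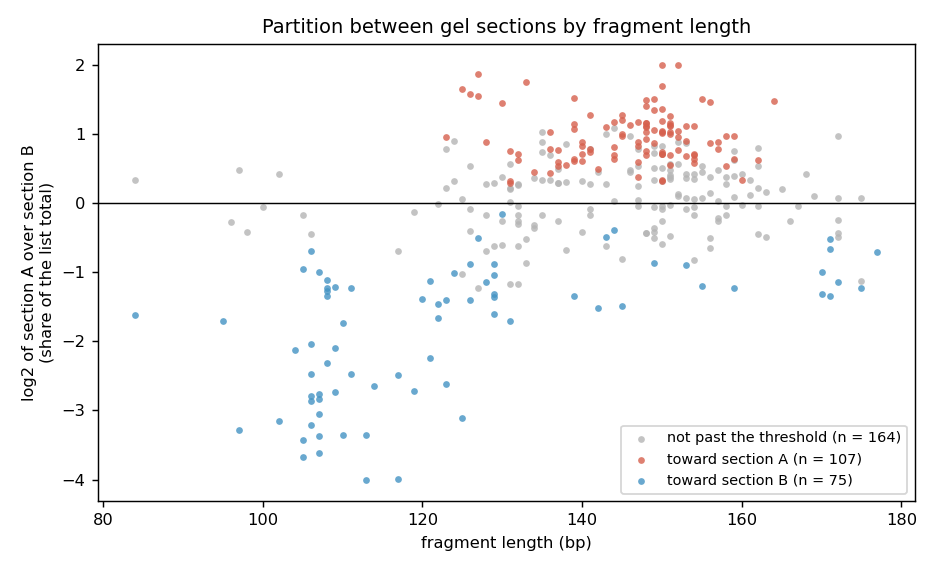
Each point is 1 of the 346 subtelomeric fragments, with its length (bp) on the x axis and the log2 ratio of its read share in section A over section B, both runs summed, on the y axis. Red points passed edgeR's test toward section A (107), blue points toward section B (75) and grey points did not pass (164); no red point lies under 120 bp.

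The same test was therefore run against the mean of all fragments of equal length. Relative to their length, 83 subtelomeric fragments (24.0%) were enriched in section A, beside 18.4% of all fragments, and 49 (14.2%) in section B, beside 14% of all. These are called above and below their length in what follows. The TEL12L locus alone gave 14 of the 83 and 4 of the 49. Among the lead fragments of this same fit the shares were 21.9% and 15.2%, beside 18.7% and 12.7% of all leads. DESeq2 gave 30 (8.67%) above, beside 5.36% of all, and 26 (7.51%) below, beside 7.38%. Among the 154 fragments with 50 or more reads in each section 54 (35.1%) were above, beside 21.9% of all such fragments, and 23 (14.9%) below, beside 16%. The length classes differed. Of the fragments of 120 to under 140 bp 36 (36.7%, beside 21.4% of all of that length) were above and 6 (6.12%, beside 16.4%) below. Several of these 36 were overlapping fragments of the TEL12L locus. Of the fragments under 120 bp 9 (18.75%, beside 21.9%) were above and 23 (47.9%, beside 28.3%) below.

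∆Lk was computed from the summed runs with the steps of the study's methods, which centre the library on −1.26. The subtelomeric fragments had a median ∆Lk of −1.21 (quartiles −1.42 and −1.04, SD 0.32), and 197 of them (56.9%) lay above −1.26. For all fragments the median was −1.25 and 51.9% lay above. The lead fragments of the zone had a median of −1.24, beside −1.26 for all leads. Medians nearer the chromosome end were higher, with −1.18 for the 675 fragments at 1 to 10 kb and −0.89 for the 229 within 1 kb, whereas the 5733 fragments at 30 kb or more outside the rDNA had −1.27. These medians are descriptions, as fragments of a locus share their sequence.

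Within the zone the medians followed no order with distance. In steps of 5 kb from the end the medians were −1.13 (102 fragments), −1.26 (65), −1.22 (93) and −1.18 (86), and distance and ∆Lk had a Spearman's rho of −0.04 over the 346 fragments. The first step holds the TEL12L locus, and without its 34 fragments the median of the zone was −1.23. In an annotated telomeric region, 40 fragments had a median of −0.96. Fragments in genes (221) and between genes (125) had medians of −1.20 and −1.23. The 83 fragments with other copies in R64 had −1.13 and the 263 single ones −1.22.

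**Figure D2:**
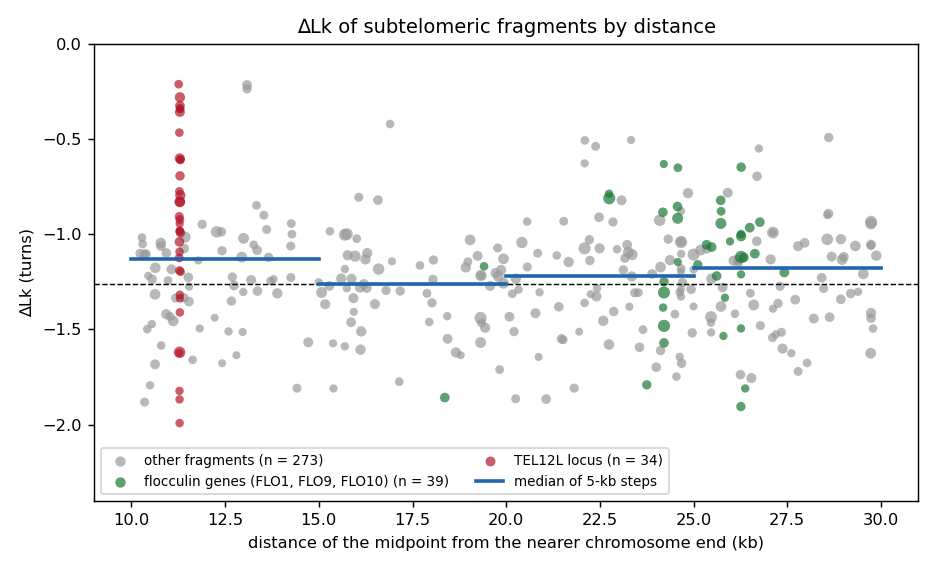
∆Lk (y axis, turns) of each subtelomeric fragment against the distance of its midpoint from the chromosome end (x axis, kb), with larger points for more reads. Red marks the 34 fragments of the TEL12L locus, which hold both the lowest and the highest ∆Lk and lie at almost 1 distance. Green marks the 39 in flocculin genes and grey the others. Blue lines are the medians of 5-kb steps, and the dashed line is −1.26.

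The runs gave similar values. ∆Lk from run 1 and from run 2 correlated with r = 0.73 over the 344 fragments seen in all 4 lists, and with r = 0.91 over the 91 with 100 or more reads in each section. The median difference between the runs was 0.124, and 275 of the 344 fragments kept their side of −1.26 from run to run. The exact binomial 95% interval of a fragment had a median width of 0.42, or 0.17 with 100 or more reads in each section. PCR copies carried no molecular identifier and are not independent molecules, so that these intervals cover counting error alone.

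DAL5, the permease for allantoate, held the most abundant fragment, 136 bp from 721018 to 721153 on chromosome X. It had 1668 and 3631 reads in NucLib, 3627 and 2921 in section A and 1913 and 2410 in section B. Its ∆Lk was −1.04 (95% interval −1.06 to −1.02, −1.04 and −1.05 in the runs), above its length with an adjusted p of 1.07e-17 in edgeR's quasi-likelihood test. The runs gave the same side, and the reads of section A exceeded those of section B in either run.

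Next in abundance was a fragment of 152 bp between BIO2, which encodes biotin synthase, and IMA1, an isomaltase. It lay from 1065865 to 1066016 on chromosome VII and had 1529 and 3433 NucLib reads, 2682 and 2110 in section A and 928 and 1131 in section B. Its ∆Lk was −1.11 (adjusted p by edgeR 9.06e-18, above its length). On chromosome VIII a fragment of 150 bp in the Gag-Pol frame YHR214C-B of a Ty1 retrotransposon (546819 to 546968) had 1718 and 1434 section A reads, 487 and 601 section B reads and a ∆Lk of −0.999. Its sequence occurs 15 times in R64, so that the element of origin cannot be told.

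Partition and length-adjusted call ran opposite ways for several abundant fragments. In CDC50, which encodes a subunit of a phospholipid flippase, a fragment of 108 bp had 1489 and 1220 reads in section A and 2520 and 3140 in section B. It passed toward section B, as fragments of this length mostly did, but lay above its length with a ∆Lk of −0.93 (−0.96 to −0.91; adjusted p by edgeR 4.04e-07). SUL1, a sulfate permease, held a fragment of 127 bp (791030 to 791156 on chromosome II) with 1752 and 1320 reads in section A, 1693 and 2185 reads in section B and a ∆Lk of −1.07 (1.55e-04). As RPM, reads scaled to the list total, these counts were 845 and 777 in section A and 1143 and 1171 in section B, without overlap, and the fragment passed toward section B. With DESeq2 neither the CDC50 nor the SUL1 fragment was above its length (adjusted p 0.344 and 0.587), and with TMM scaling in edgeR SUL1 was not (0.0967).

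In FLO9, on the left arm of chromosome I, the 111-bp fragment shown above had 889 and 695 reads in section A against 3436 and 4374 in section B. These counts do not overlap, and the log2 ratio of the read shares was −2.47. Relative to its length it was below, with an adjusted p of 9.29e-39 by edgeR and a ∆Lk of −1.48 (−1.51 to −1.46). An even larger number of section B reads, 3473 and 4584 against 696 and 545 in section A, came from a fragment of 106 bp in LYS1, the saccharopine dehydrogenase of lysine synthesis (420520 to 420625 on chromosome IX, ∆Lk −1.44). LYS1 was named after its values were seen.

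AQY1, an aquaporin of spores, had a fragment of 162 bp (922520 to 922681 on chromosome XVI) with 1381 and 1162 reads in section A and 1032 and 1304 in section B. Its partition did not pass the test, although it did toward section B with TMM scaling (adjusted p by edgeR 0.00494), and it was below its length only narrowly (∆Lk −1.43, adjusted p by edgeR 0.037). With fragments of 1 or more reads in each section tested, its length-adjusted log2 change turned to 0.10 (adjusted p 0.244), and the call was lost without any 1 of the 4 libraries (0.0628 to 0.219).

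Among the 82 lead fragments with 100 or more reads in each section, 73 had both runs on 1 side of −1.26. The highest ∆Lk among these 73, −0.78 (−0.90 to −0.67), belonged to the second DAL5 fragment, of 139 bp, with 164 and 169 reads in section A and 56 and 47 in section B. Its runs gave −0.94 and −0.63, a wide spread, both above the library mean. FLO1 followed with a fragment of 125 bp in the last part of the gene (207407 to 207531), which had 2126 and 1725 reads in section A and 1436 and 1847 in section B and a ∆Lk of −0.81 (−0.84 to −0.79). It lay above its length with an adjusted p of 2.74e-28 by edgeR, although its partition between the sections did not pass (0.269). HPA3, a D-amino acid N-acetyltransferase, had 1475 and 1173 reads in section A and 815 and 1077 in section B from a fragment of 131 bp on chromosome V, with a ∆Lk of −0.99.

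At the low end, RSC9, a subunit of the RSC chromatin remodeller, had a fragment of 171 bp with 101 and 109 section A reads, 125 and 171 section B reads and a ∆Lk of −1.62 (−1.72 to −1.53). FDH1, formate dehydrogenase, likewise had a fragment of 171 bp, with 284 and 198 against 254 and 361 reads and a ∆Lk of −1.57. A fragment of 143 bp in FMP27 had 86 and 79 against 73 and 134 reads and a ∆Lk of −1.60. All 3 passed the length-adjusted test, with adjusted p between 1.27e-05 and 0.00928 by edgeR. FDC1, a decarboxylase of phenylacrylic acids, had 98 and 88 against 78 and 97 reads in a fragment of 153 bp (∆Lk −1.49, adjusted p 0.031). Between YEL073C and RMD6, a fragment of 109 bp had 57 and 57 against 298 and 374 reads (∆Lk −1.46, adjusted p by edgeR 7.11e-12). The longest of the low group, 172 bp between YHL041W and the siderophore transporter gene ARN1, had a ∆Lk of −1.55 and did not pass (0.361). Single libraries decided some of these calls: RSC9 was lost without run 1 of section A (0.285) or run 2 of section B (0.0976), FDH1 without run 2 of section A (0.165) or of section B (0.162), and FDC1 without run 1 of section A (0.187) or either run of section B (0.0986 and 0.117). DESeq2 called none of RSC9, FDH1 and FDC1, and FMP27 was lost only when fragments from 1 read in each section were tested (0.128). In that setting RSC9 (0.155), FDH1 (0.349) and FDC1 (0.953) were lost too. RSC9 and FDH1 also did not pass with 50 or more reads (0.0598 and 0.0593) or in a fit of lead fragments alone (0.169 and 0.429), where the log2 change of FDH1 was −0.11, and FDC1 did not pass among sequences found once in R64 (0.0605).

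**Figure D3:**
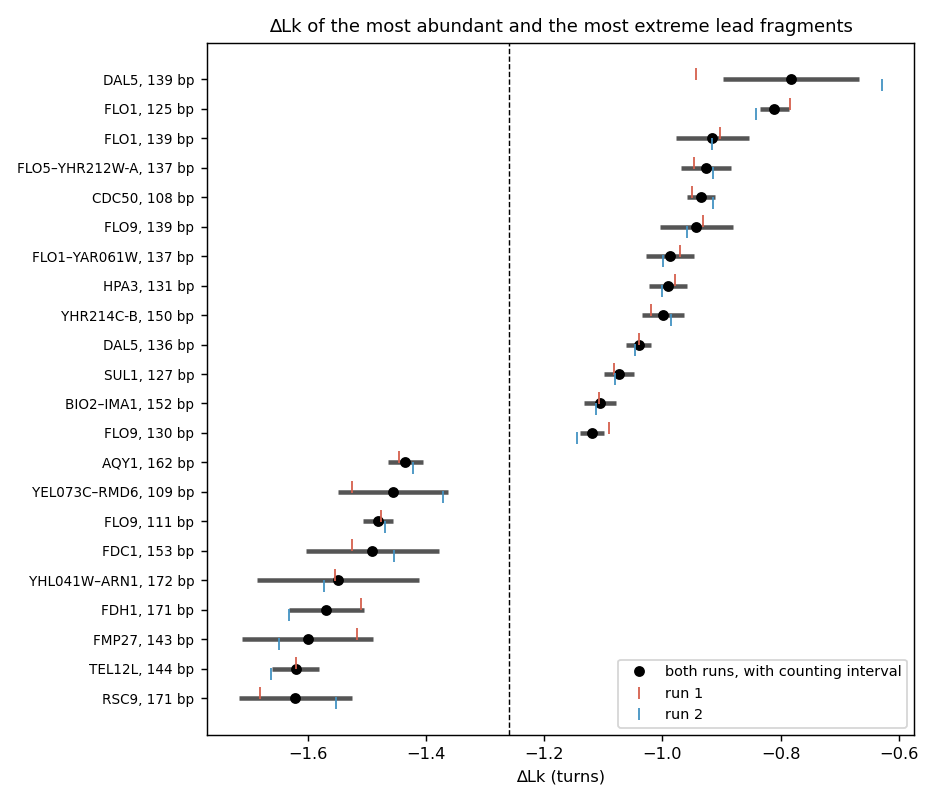
∆Lk (x axis, turns) of the most abundant and of the highest and lowest lead fragments, named by gene or by the genes on either side, with the length in bp. Black points and bars are both runs summed with the 95% counting interval, red and blue ticks are runs 1 and 2, and the dashed line is −1.26; every fragment lies on 1 side of it in both runs, from RSC9 at −1.62 to DAL5 at −0.78.

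The TEL12L locus differed from the others in the number of its fragments. On the left arm of chromosome XII, 34 nested fragments of 84 to 162 bp lay between 11196 and 11358, inside the annotated telomeric region that runs from 1 to 12085. Their sequence is a telomeric repeat tract, and the lead fragment consists of 61.8% C and 38.2% A on the plus strand, without G or T. It occurs once in R64. Whether reads from the telomere ends themselves, which have the same type of repeat, were placed here was not tested. The 34 fragments had 21 starts but only 7 ends, and 18 of them shared the end of the lead.

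The lead of 144 bp had 848 and 1292 reads in NucLib, 836 and 471 in section A and 785 and 742 in section B. Its ∆Lk of −1.62 (−1.66 to −1.58) was among the lowest of the well covered leads, and it was below its length with an adjusted p of 1.14e-15 by edgeR. The fragment that starts 18 bases later and ends at the same base (126 bp, 11232 to 11357) had 206 and 334 NucLib reads, 210 and 148 in section A and 40 and 67 in section B. Its ∆Lk was −0.28 (−0.39 to −0.17), above its length with 4.64e-20. Their counting intervals are apart by far, and the order was the same in both runs (−1.62 and −1.66 for the lead, −0.14 and −0.40 for the shorter one).

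Fragments that share an end with either of them spread widely. The 3 fragments from the later start, each with its own end, had ∆Lk between −0.36 and −0.28. With the lead's end, the fragments 11227 to 11357 and 11230 to 11357 each had −0.83, with 194 and 134 against 62 and 111 reads and 188 and 140 against 115 and 127. Values did not grade with the start, since fragments from 11223, 11229 and 11231 to the same end had −1.32, −1.41 and −1.34 (at most 18 reads per list of a section), and those from 11229 and 11231 had intervals apart from that of 11230. A start 39 bases after that of the lead (11253 to 11357) gave −0.80.

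Fragments with all of the lead did not share 1 level either. The one from 11214 to 11358, longer than the lead by 1 base at the end, had a ∆Lk of −1.99. Its interval overlapped that of the lead. The fragments that hold the whole lead and begin before it, at 11212, 11208, 11206 and 11196, had ∆Lk of −1.09, −1.19, −0.77 and −1.12. Each had at most 28 reads per list of a section, and the interval of each was apart from that of the lead, on the higher side.

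From the lead's own start, 4 fragments of 139 to 145 bp had ∆Lk of −1.99 to −1.62, whereas those of 133 and 97 bp had −0.47 and −0.21. These 5 fragments other than the lead had at most 23 reads per list of a section. Of all 34, 26 lay above −1.26, 14 were above and 4 below their length, and the locus had a median of −0.93. The lead made up 33.5% of the section A reads of the locus and 46.9% of its section B reads.

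**Figure D4:**
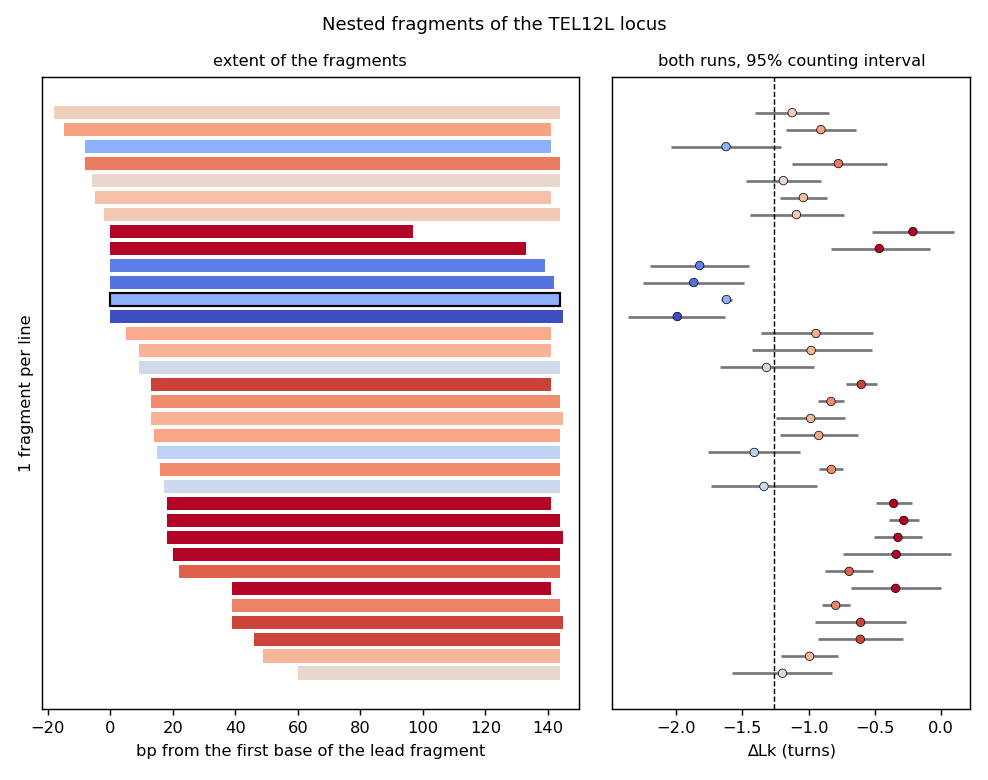
Left, the extent of the 34 fragments of the TEL12L locus in bp from the first base of the lead fragment, which is outlined, with blue for low and red for high ∆Lk. Right, the ∆Lk of each (x axis, turns) with its 95% counting interval and a dashed line at −1.26; fragments that start with the lead and are 139 to 145 bp long lie below the line, and those that start 18 bases later lie between −0.36 and −0.28.

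On the right arm of the same chromosome, TEL12R held 6 fragments in 3 loci. A pair from 1065030 to 1065156, with a G+C content of 60.7% that is close to the 62.2% of TEL12L, had a median ∆Lk of −0.23. The longer fragment of the pair had 112 and 73 reads in section A against 20 and 25 in section B, and both were above their length. In the other loci, with up to 11 copies in R64, the medians were −1.33 and −1.22, and none of their 4 fragments was above its length.

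Fragments that share 1 end and differ at the other were compared as 295 pairs, 213 of them in TEL12L. In 97 pairs the counting intervals did not overlap, and the shorter fragment had the higher ∆Lk in 183. With 50 or more reads in each section there were 29 pairs, of which 15 had intervals apart and 23 had the shorter one higher. Outside TEL12L these numbers were 11, 5 and 9. Pairs within a locus share fragments and are not independent. The correction of 0.007 per bp raises the ∆Lk of the shorter fragment, so the direction of these pairs is built in in part.

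CDC50 gave the clearest case outside the telomeric tract. The 108-bp fragment (286831 to 286938 on chromosome III, ∆Lk −0.93) differed from one of 106 bp by the 2 bases CC at its start. That fragment had 42 and 20 reads in section A and 176 and 204 in section B, with a ∆Lk of −1.41. The other fragments with the CC, of 109, 110 and 111 bp, had −0.94 (540 and 391 against 842 and 1074 reads), −1.05 and −1.06. Those without it, of 107 and 123 bp, had −1.44 and −1.62. Thus all 4 fragments with the first start had higher values than the 3 with the second.

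Some fragments that differ by 1 base had counting intervals apart, and others did not. In CDC50 the intervals overlapped for 109 and 108 bp (−0.94 and −0.93) and for 107 and 106 bp (−1.44 and −1.41). The pairs that follow had intervals apart. Between ARN2, a siderophore transporter, and the seripauperin gene PAU13, a fragment of 106 bp had 99 and 48 section A reads, 329 and 399 section B reads and a ∆Lk of −1.32, and one of 105 bp without its first base had 15 and 6 against 106 and 133 and −1.68. In DAK2, a dihydroxyacetone kinase, the corresponding pair had 107 and 71 against 271 and 381 reads with −1.17, and 2 and 10 against 59 and 56 reads with −1.61. In the ARN2 and DAK2 pairs the minor fragment was the lower one. ARN2 and DAK2 were chosen after their values were seen.

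The shorter fragment was the lower one in HPA3 and DAL5 too. The first 106 bases of the HPA3 fragment, sequenced as a fragment of their own, had 6 and 4 reads in section A, 42 and 40 reads in section B and a ∆Lk of −1.54, compared with −0.99 for the whole 131 bp. For the first 107 bases of the DAL5 fragment the reads were 8 and 4 against 56 and 75 and the ∆Lk −1.68, compared with −1.04 for 136 bp. In FLO9 both orders occurred. Its 119-bp fragment from 26212 to 26330 had 41 and 38 against 35 and 42 reads and a ∆Lk of −0.65, above the −1.12 of the 130-bp fragment that contains it, with 2957 and 2284 against 2236 and 2961. The first 125 bases of the 130, which occur at 3 places in R64, had 4 and 9 against 48 and 52 reads and −1.90, with an interval apart from that of the whole. The 130-bp fragment was above its length with an adjusted p of 0.00603 by edgeR, which was lost without run 1 of section A (0.212) or of section B (0.0974) and with TMM scaling (0.82).

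Flocculin genes held 39 fragments in 12 loci, in FLO1, FLO9 and FLO10 of the 5 genes listed. Their median ∆Lk was −1.12. Toward section A 14 passed the test, beside 24.3% of all fragments, and toward section B 10, beside 21.3%. Relative to length 14 were above, beside 18.4%, and 6 below, beside 14%. Of the 39, 12 belong to 4 groups of identical sequence, so these counts are not over separate sequences. FLO1 and FLO9 encode lectins of the cell wall that bind mannose chains of other cells, and long stretches of them are alike. In FLO9 the 111-bp fragment and the 108-bp one from the same start (736 and 587 reads in section A, 2609 and 3253 reads in section B) had ∆Lk of −1.48 and −1.31, and both were below their length. The shorter of these occurs at 2 places in R64 and the longer at 1. The loci in the middle of both genes were above, at −0.94 in FLO9 and −0.92 in FLO1.

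FLO10, a flocculin gene on the right arm of chromosome XI, had 2 loci. One fragment of 117 bp (648396 to 648512) had 7 and 5 reads in section A against 68 and 101 in section B, without overlap. Its ∆Lk was −1.86 (−2.12 to −1.61), below its length with an adjusted p of 4.48e-08 by edgeR. The other, of 152 bp, had 18 and 13 against 7 and 8 reads and a ∆Lk of −1.17, and it did not pass. In FLO1 a fragment of 153 bp with 23 and 24 against 42 and 36 reads had −1.79 and was also below its length (0.000291).

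The internal repeat of FLO1 has a period of 135 bp. A fragment of 148 bp, 1 unit and 13 bases of the next, was identical at 6 places, 3 in each of FLO1 and FLO9. Together they had 470 and 377 reads in section A, 154 and 186 reads in section B and a ∆Lk of −1.06 (−1.12 to −0.99). The single places, among which the reads were split, gave values from −1.22 to −0.94. A pair of 130-bp fragments, FLO9 26201 to 26330 and FLO1 205041 to 205170, is identical in 129 of 130 bases, and the counts kept them apart: FLO9 had 2957 and 2284 section A reads and FLO1 22 and 22. Their ∆Lk were −1.12 and −1.16, within the counting interval of the rarer one.

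In all, 48 fragments fell into 22 groups of identical sequence. The reads of a group came in nearly equal parts from its places in R64, so the place of origin cannot be told and the group counts as 1 sequence. The ∆Lk of the copies differed by a median of 0.097 and by at most 0.352, and in all 22 groups their intervals overlapped. When the copies were pooled, 14 groups lay above −1.26.

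The highest groups were the central fragments of FLO1 and FLO9. Pooled, the one of 139 bp had 1032 and 885 reads in section A and 335 and 454 in section B and a ∆Lk of −0.93 (−0.97 to −0.89), and the shorter forms of 132 and 126 bp had −0.84 and −0.77. A fragment of 137 bp that is the same downstream of FLO1 and next to FLO5 (chrI:217879-218015 and chrVIII:538481-538617) had 1974 and 1605 against 878 and 1106 reads and −0.96. Lowest was a fragment of 113 bp from the same duplicated block (chrI:215443-215555 and chrVIII:536045-536157), with 26 and 23 against 261 and 282 reads and −1.65 (−1.78 to −1.53). Within 1 duplicated block the values thus covered most of the range of all groups.

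VTH1 and VTH2, which encode proteins like the vacuolar sorting receptor Vps10, contributed 5 such groups. The group of 107 bp had 51 and 58 against 404 and 493 reads and a pooled ∆Lk of −1.56, and its 2 copies were both below their length. Other groups in the pair had from −1.39 to −0.97. HXT15 and HXT16, hexose transporters, shared a fragment of 140 bp with 815 and 687 against 350 and 450 reads and −1.07. THI13 and THI11, enzymes for the pyrimidine part of thiamine, shared one of 157 bp with 312 and 258 against 133 and 152 reads and −1.12. The enolase-related genes ERR1 and ERR2 shared one of 144 bp with −1.11.

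**Figure D5:**
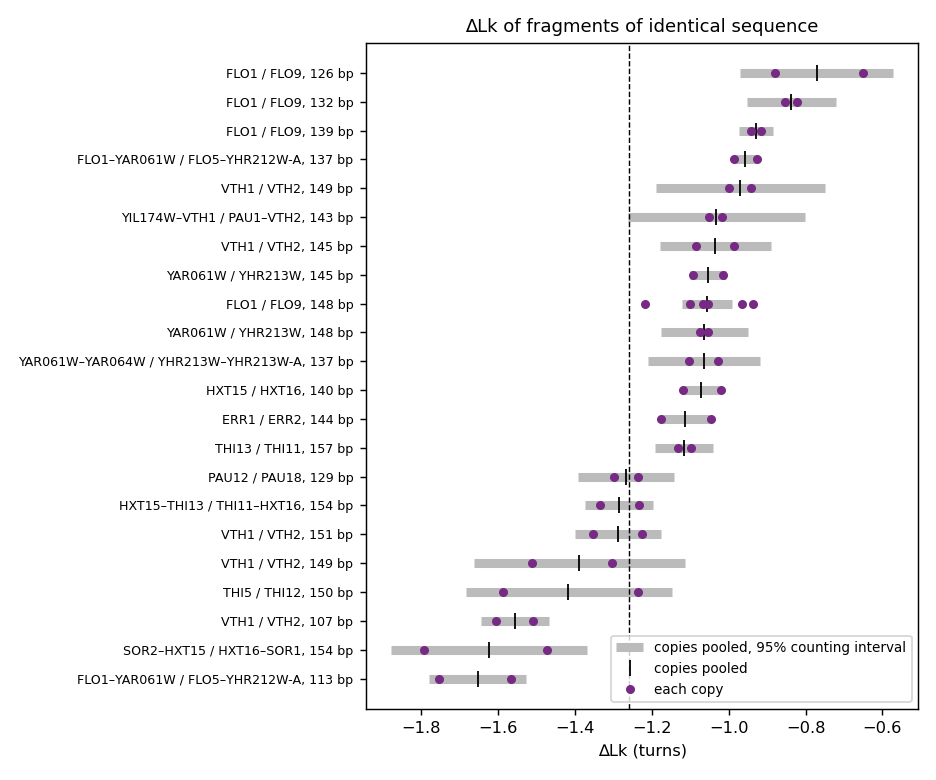
∆Lk (x axis, turns) of the 22 groups of subtelomeric fragments with identical sequence, named by gene or neighbouring genes with the length in bp. Purple points are the single copies, black ticks with grey bars the pooled reads with their 95% counting interval, and the dashed line is −1.26; 14 groups lie above it.

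The gene families other than flocculins had few fragments each, and their counts stand beside 24.3% of all fragments toward section A, 21.3% toward section B, 18.4% above and 14% below their length. Hexose transporters had 9 (HXT12, HXT13, HXT15, HXT16 and HXT17 of 17 listed genes), with 4 toward section A and 1 toward section B, 3 above and 1 below their length and a median ∆Lk of −1.14. The copies of HXT15 and HXT16, 1 sequence, gave 2 of the 3 above. The lowest was in HXT12, where 8 and 15 reads in section A and 28 and 20 in section B gave −1.86 (adjusted p by edgeR 0.00427), and it was in neither NucLib list. This HXT12 call was lost with DESeq2 (adjusted p 0.113) and in edgeR from 1 read in each section (0.0517). It was also lost without run 1 of section A or of section B, where its log2 change of −1.36 became −0.83 and −0.93. Genes of thiamine, pyridoxine and biotin had 6, all in THI5, THI11, THI12 and THI13, of which 3 were above, the identical copies in THI13 and THI11 among them, and 0 below (median −1.21). With DESeq2 this THI13 copy was not above its length (adjusted p 0.128). For sulfur compounds and amino acids there were 11 in JLP1, MMP1, MUP3, SAM3 and SUL1, 4 above, of which 2 overlap in SUL1, and 0 below, with a median of −1.13.

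SAM3, the permease for S-adenosylmethionine, was among the 4 with a fragment of 151 bp of 742 and 569 against 257 and 314 reads and a ∆Lk of −1.11. The SAM3 fragment was not picked by the rules for naming. Iron uptake genes (FIT1, FRE2, FRE5 and SIT1) had 6 fragments with a median of −1.22, of which 1, in the ferric reductase gene FRE5, was above its length. The 7 fragments of dehydrogenase genes had a median of −1.29, with ADH4, an alcohol dehydrogenase, at −1.002 (1836 and 1612 against 1148 and 1370 reads). DSF1, which resembles mannitol dehydrogenases, was at −1.71 (12 and 12 against 11 and 21) and below its length. The DSF1 call was lost with DESeq2 (adjusted p 0.275) and in edgeR from 1 read in each section (0.317). It was also lost without run 1 or run 2 of section A (log2 change −0.95 and −1.23) or run 2 of section B (−0.74). Genes of maltose use (IMA1, IMA2 and MAL13) had 3 fragments between −1.31 and −1.20, and none passed the length-adjusted test. Seripauperin genes had 3, in PAU12 and PAU18, with a median of −1.24.

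Ty elements and their long terminal repeats had 11 fragments with a median of −1.24, and all of these occurred more than once in R64. Origins of replication had 2. No fragment was found in the listed COS, phosphate or arsenic genes or in a tRNA gene. Since each family had between 2 and 39 fragments that partly share sequence, their medians are given beside the −1.25 of all fragments as a description.

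Base composition went with ∆Lk to a small extent. Over the 346 fragments, Spearman's rho of ∆Lk was 0.27 with G+C content and −0.29 with the share of AA, TT and TA steps. It was 0.29 with the share of CA and TG steps and −0.33 with length. Without the TEL12L locus these values were, in the same order, 0.20, −0.22, 0.22 and −0.29. The coefficient for length depended on the correction per bp. Before that correction, the deviation from the mean of equal lengths had a rho with length of 0.006, and of 0.06 without the TEL12L locus. Nested and identical fragments share their composition, and these coefficients are descriptions across fragments. Runs of 5 or more A or T were present in 32.4% of the subtelomeric fragments and in 32.3% of all.

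The abundance of a fragment in the sections also differed from that in the library. Relative to NucLib, the mean abundance in the sections of the 303 fragments with 10 or more NucLib reads had a median log2 ratio of −0.47, beside −0.41 for all fragments. For those under 120 bp it was 0.84, beside 0.65 for all fragments under 120 bp. For those of 120 bp or more it was −0.55, beside −0.49 for all. The fragment of VTH2 of 107 bp was the most enriched, with 8 and 25 reads in NucLib but 208 and 253 in section B (log2 ratio 2.57). Its identical copy in VTH1, with which its reads were split, had 2.52.

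The fragments nearest the limits of the zone had the following values. Just inside 10 kb lay chrXII:1067882-1068018 and chrX:10212-10354 with log2 ratios of section A over section B of 0.29 and 1.09, and just outside chrXII:1068177-1068319 and chrIII:9833-9955 with 0.39 and −3.09. Just inside 30 kb the ratios were 0.60 and −0.04, and just outside −0.02 and 0.00. At the read limit, 8 fragments had exactly 10 reads in section A, with 11 to 82 in section B, and 8 that were left out had 9, with 10 to 52. In section B, 8 had exactly 10 reads and 11 to 45 section A reads, and 6 that were left out had 9, with 10 to 25.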

How the data were processed

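The values are read counts per fragment in 6 lists, deposited as raw counts that the authors obtained by trimming adaptors (Cutadapt), aligning read pairs to R64 with Bowtie 1.1.2 and counting each distinct start and end. SAMtools, Picard and BWA also appear in the submitters' processing notes. Each list ends at 65536 lines, so that absence means a count at or below its lowest, and the list totals are lower bounds. Reads of identical sequences were split among their places. Printed coordinates are 1-based. Groups were taken from the labels, and the replicate number is the sequencing run.

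Section A was compared with section B with edgeR 4.0.16 (quasi-likelihood test, library sizes from the list totals, R 4.3.3 and limma 3.58.1), also with the mean of equal lengths as an offset. The median number of fragments of the same length was 141, and the lowest 19. For ∆Lk, relative abundances gave the share A/(A+B), whose Z-score was multiplied by 0.85. The mean of equal lengths was subtracted, 0.007 was added per bp below 144 bp or subtracted per bp above it, and −1.26 was added. The rest was done in Python 3.11.15 (pandas 2.3.3, numpy 2.4.6, matplotlib 3.10.9, scipy 1.17.1). The tests were tried on simulated counts of 9277 fragments: 30% of 1.5-fold, 50% of 2-fold, 86% of 3-fold and 98% of 5-fold changes were found, and 26%, 52%, 72% and 98% with the length offset.

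Named fragments were drawn from the leads of the 10 most abundant loci, of the locus with most fragments and of every flocculin locus. Another source was the 8 highest and 8 lowest ∆Lk among leads with 100 or more reads per section and 1 side in both runs. The highest and lowest of each other gene list with 3 or more loci were a further source. Others are marked, appear as nested or identical partners, or lie in TEL12R or at the limits of the zone. Members and lists were chosen with earlier results of these data known. DESeq2 1.42.0, other normalizations, read minimums, length corrections, single runs, 1 lead per locus and single-copy sequences were alternatives. Run numbers are lanes shared by both sections, and run deviations of section A and section B correlated with r = 0.12 over 3989 fragments.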

Additional observations from a re-analysis of the deposited data

How the results depend on the processing

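Under DESeq2 the counts fell to 49 toward section A, 49 toward section B, 30 above and 26 below their length, and the cause was not tested. With 50 or more reads in each section, which leaves fewer fragments, 36 passed toward section B, 54 were above and 23 below. When the test was refitted on the 4792 lead fragments alone, 88 passed toward section A (37.1%, beside 33.6% of all leads). Toward section B 49 passed (20.7%, beside 17.5%). In that fit 47 were above (19.8%, beside 18.3%) and 30 below (12.7%, beside 12.3%), so both length-adjusted shares were close to those of all leads. With sequences found once in R64 31 were below (11.8%, beside 14.3%). Leaving out 1 library leaves a single run in 1 section, so its calls are not counted here. It moved the median log2 ratio of all fragments from 0.08 to between 0.07 and 0.11. With the length offset, the median of 0.09 moved to between 0.08 and 0.11. The replicate numbers are the 2 runs. With the replicate block 111 (32.1%, beside 25.2% of all fragments) passed toward section A and 78 (22.5%, beside 21.8%) toward section B. Above their length were 85 (24.6%, beside 19.4%), and below 53 (15.3%, beside 14.5%). All these counts were within 1.5 times the unblocked ones. Scaling shifted the split by section: TMM gave 97 (28%, beside 20.1% of all) and 82 (23.7%, beside 23.4%). Library sizes from the fragments used gave 84 (24.3%, beside 17%) and 84 (24.3%, beside 25.3%). They moved the median log2 ratio of all fragments from 0.08 to −0.12. With those sizes the FLO1 fragment chrI:207407-207531 passed toward section B (log2 −0.14, adjusted p 0.00329 by edgeR). Without the TEL12L locus 98 (31.4%, beside 24.3% of all) and 67 (21.5%, beside 21.3%) passed. Of these fragments 69 (22.1%, beside 18.3%) were above and 45 (14.4%, beside 14%) below. These sizes, the TEL12L alternative and that with 10 or more NucLib reads were chosen after seeing the data. For AQY1 (chrXVI:922520-922681), tests from 1 read in each section turned the length-adjusted log2 change to 0.10 (adjusted p 0.244, edgeR).

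The median ∆Lk of −1.21 became −1.17 without the length mean, −1.19 without the correction per bp, −1.20 with 50 or more reads, −1.20 for sequences found once in R64, −1.25 with 1 lead per locus and −1.23 without the TEL12L locus. With 1 run left out it was −1.21 to −1.19. For all other fragments −1.25 became −1.24, −1.23, −1.27 (50 or more reads), −1.27 (1 lead) and −1.26 (10 or more NucLib reads), and −1.25 to −1.24 with 1 run left out. The smallest differences between fragments are limited by depth: intervals were 0.42 wide at the median, and differences below that were not detectable in most single fragments.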
